A study of Mus musculus with 12 samples.

Results

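The genes described are those of the urokinase system and of secreted matrix metalloproteases that were listed by name, namely *Plaur*, *Plau*, *Plat*, *Serpinb2*, *Mmp3*, *Mmp9*, *Mmp10*, *Mmp13* and *Timp1*. All 9 were found among the 21947 loci of the count table, each on a row that carries a single gene name. *Plaur* was picked because its counts were lower in the siSbsn libraries than in the siControl libraries of both batches, so that its values in this contrast are a description without a test. The other 8 were listed by function. The values come from RNA-Seq of primary keratinocyte cultures from BALB/c newborn mice, which received 75 pmol of an siRNA pool directed against *Sbsn* (siSbsn), the same amount of a non-targeting siRNA pool (siControl), or no siRNA. Every group was grown in 0.05 mM calcium with 8% serum and then brought to 0.12 mM calcium to start differentiation, and RNA was taken 48 h after transfection. Each of these 3 treatments had 2 libraries in batch 1, and in batch 2 siControl and siSbsn had 3 each. The labels give neither what differed between the batches nor whether the libraries of a group came from separate animals, so that p-values measure only the spread between these libraries.

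Plasminogen activators are serine proteases that cut plasminogen, a protein of serum and tissue fluid, into the broad protease plasmin. *Plau* encodes the urokinase-type activator, *Plat* the tissue-type activator, and *Plaur* the receptor that holds urokinase at the cell surface, while *Serpinb2* encodes a serpin that inhibits urokinase and that keratinocytes keep largely inside the cell. Plasmin breaks down fibrin and can activate the secreted zymogens of matrix metalloproteases. Of these, *Mmp3* and *Mmp10* encode the closely related stromelysins, *Mmp13* a collagenase and *Mmp9* a gelatinase, and *Timp1* encodes a secreted inhibitor of metalloproteases. In skin, keratinocytes are known to make these proteins at the edge of a wound, where cells move over and through the matrix.

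*Mmp13*, *Mmp3* and *Mmp10* lie in this order on the plus strand of chromosome 9 (mm10), within 237.7 kb from 7272514 to 7510242. The promoters of these 3 genes and of *Plaur* are shown because each holds the 7-base AP-1 motif, the site of Jun and Fos dimers, which was searched on both strands as TGAGTCA or TGACTCA. Each sequence runs 5′ to 3′ on the plus strand from 250 bases before the annotated start to 50 bases from it (RefSeq, GRCm38.p6, the assembly of mm10), with the AP-1 motif and the TATA box (TATAAA, searched on the strand of the gene) in capitals. The windows are chr7:24462233-24462532 for *Plaur*, chr9:7445572-7445871 for *Mmp3*, chr9:7502092-7502391 for *Mmp10* and chr9:7272264-7272563 for *Mmp13*.
Plaur promoter: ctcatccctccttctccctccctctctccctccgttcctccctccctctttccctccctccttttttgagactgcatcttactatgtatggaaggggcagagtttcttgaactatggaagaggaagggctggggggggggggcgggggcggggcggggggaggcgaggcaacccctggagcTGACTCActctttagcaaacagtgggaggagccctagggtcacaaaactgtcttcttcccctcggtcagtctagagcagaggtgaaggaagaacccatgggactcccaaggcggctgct
Mmp3 promoter: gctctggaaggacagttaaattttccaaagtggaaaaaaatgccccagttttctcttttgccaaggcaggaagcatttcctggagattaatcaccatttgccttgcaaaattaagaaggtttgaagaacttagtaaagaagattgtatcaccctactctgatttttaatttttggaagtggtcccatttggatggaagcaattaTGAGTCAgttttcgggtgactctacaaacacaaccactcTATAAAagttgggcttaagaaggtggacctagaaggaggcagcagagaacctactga
Mmp10 promoter: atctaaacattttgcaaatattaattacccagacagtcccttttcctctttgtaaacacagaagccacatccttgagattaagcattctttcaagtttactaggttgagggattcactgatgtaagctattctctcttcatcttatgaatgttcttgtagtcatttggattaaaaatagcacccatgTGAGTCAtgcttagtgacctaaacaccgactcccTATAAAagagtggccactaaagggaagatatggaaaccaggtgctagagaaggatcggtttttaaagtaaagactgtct
Mmp13 promoter: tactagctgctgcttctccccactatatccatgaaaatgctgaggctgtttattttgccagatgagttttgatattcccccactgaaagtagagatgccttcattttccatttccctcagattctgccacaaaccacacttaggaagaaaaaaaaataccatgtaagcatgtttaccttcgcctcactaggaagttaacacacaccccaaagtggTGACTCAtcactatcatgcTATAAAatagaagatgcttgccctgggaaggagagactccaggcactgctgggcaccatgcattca

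The AP-1 motif began 69 bases before the start in *Plaur*, 46 in *Mmp3*, 63 in *Mmp10* and 35 in *Mmp13*. Promoters were found for 6 of the 9 genes, and 4 of these 6 held the motif, compared with 5.95% of all 27025 genes with a promoter. Counted by promoter, the share was 5.2% of all 32851 promoters of the same length. The TATA box stood after the AP-1 motif in the 3 metalloprotease promoters, beginning 7 bases before the annotated start in *Mmp3*, 29 in *Mmp10* and 16 in *Mmp13*. It was also present in *Serpinb2*, 29 bases before the first of its annotated starts and 116 before the second. It was found in 8.32% of all promoters. An ETS motif (CAGGAAG or AGGAAGT on either strand, which overlap each other by 6 bases) was found in *Mmp3*, *Mmp13* and *Timp1* and in 18.4% of all promoters. No promoter is shown for *Plau*, *Plat* and *Mmp9*. These matches describe the letters of the windows, and binding was not measured.

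**Figure D1:**
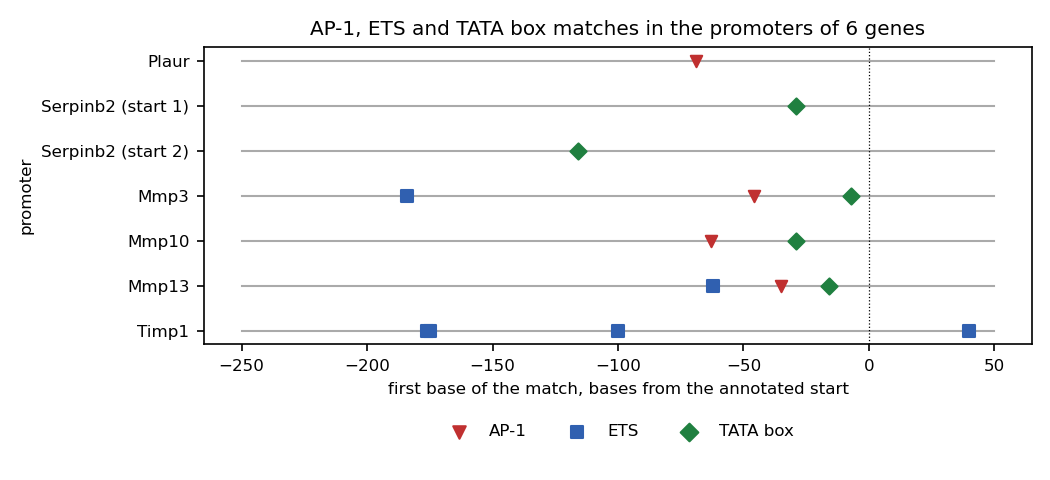
Position of AP-1, ETS and TATA box matches in the promoters of 6 genes, with the first base of each match on the horizontal axis in bases from the annotated start (dotted line) and 1 grey line for each promoter. AP-1 matches lie within the 69 bases before the start in *Plaur*, *Mmp3*, *Mmp10* and *Mmp13*, and *Serpinb2* has 2 annotated starts.

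Total counts per library ranged from 27934836 to 49553923. *Sbsn*, the target of the siRNA, was measured at 371, 332 and 459 CPM (counts per 1000000 of the effective library size) in siControl replicates 1 to 3 of batch 2, against 124, 125 and 121 CPM in siSbsn replicates 4 to 6. The batch 1 values were 1189 and 1356 CPM with siControl but 1965 and 696 with siSbsn, so that the library labelled siSbsn batch 1 replicate 1 was not below the controls. The values of siSbsn against siControl are therefore given with and without this library for the 9 genes. Summed over 8 keratinocyte markers the level was 41648 to 113682 CPM in the 12 libraries, with no marker under 1 CPM in all of them. The sum of 10 fibroblast markers, 1 of them under 1 CPM throughout, was 524 to 1484 CPM, that of 6 melanocyte markers 524 to 737 CPM, that of 8 leukocyte markers 7.01 to 22.2 CPM with *Cd207*, the Langerhans cell marker, at 0 in all 12, and that of 6 endothelial markers, 4 of them under 1 CPM throughout, 1.91 to 4.49 CPM. These are bulk cultures, in which fewer cells of a type and less RNA per cell cannot be told apart.

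The 9 genes spanned a wide range of levels. Per kb of the longest annotated transcript, averaged over the 12 libraries, *Serpinb2* was the most abundant at 430 CPM per kb, rank 66 of the 12898 loci with a length. It was followed by *Plau* at 47.8 and *Plaur* at 22.8 CPM per kb, then by *Mmp9* at 6.72, *Timp1* at 5.80, *Plat* at 4.06, *Mmp13* at 1.78, *Mmp3* at 1.07 and *Mmp10* at 0.172 CPM per kb. The level of *Serpinb2* per kb was 8.87-fold that of *Plau* and higher in 12 of 12 libraries, and *Plau* was above *Plaur* in 12 of 12. *Mmp9* and *Timp1* had no single order, since *Mmp9* was higher in 6 of 12 libraries, which were those of batch 1. Their means were 11.4 and 7.49 CPM per kb in batch 1 and 2.06 and 4.12 in batch 2. *Timp1* was above *Plat* in 9 of 12, and *Plat* above *Mmp13*, and *Mmp13* above *Mmp3*, in 11 of 12 each. *Mmp10* lay under *Mmp3* in 12 of 12, and its raw counts were only 5 to 36 per library.

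The receptor gene *Plaur* (chr7:24462483-24475968) was measured in batch 1 at 50.2 and 73.4 CPM for no siRNA, 67.0 and 96.2 in siControl, and 38.7 and 48.0 in siSbsn. In batch 2 it was measured at 31.2, 33.1 and 37.0 CPM with siControl and 25.0, 23.3 and 25.3 with siSbsn. Every siSbsn library lay below every siControl library of its batch, and every batch 2 library below every batch 1 library.

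*Plau* (chr14:20836662-20843388), the urokinase gene, stood at 218 and 131 CPM for no siRNA, 118 and 138 in siControl, and 229 and 152 in siSbsn of batch 1. The batch 2 values were 62.6, 61.7 and 67.2 CPM with siControl and 54.1, 52.6 and 58.3 with siSbsn. The siSbsn libraries were thus the higher ones in batch 1 and the lower ones in batch 2, without overlap in either, a pattern held by 0.796% of the 13562 loci that passed the filter on low counts over 12 libraries. *Plat* (chr8:22757722-22782848), the tissue-type activator gene, was measured at 36.5 and 15.2 CPM for no siRNA, 15.1 and 13.2 in siControl, and 42.9 and 21.7 in siSbsn of batch 1. In batch 2 it reached 7.79, 8.14 and 7.96 CPM with siControl and 10.3, 8.91 and 9.27 with siSbsn. *Plat* was the only gene of the 9 with every siSbsn library above every siControl library in both batches, a pattern seen in 4.9% of these loci.

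*Serpinb2* (chr1:107511423-107525600), the serpin gene, was measured at 1597 and 1265 CPM for no siRNA, 826 and 1112 in siControl, and 1506 and 1434 in siSbsn of batch 1. In batch 2 its values were 405, 429 and 470 CPM with siControl and 419, 417 and 427 with siSbsn. The siSbsn libraries lay above siControl in batch 1, and in batch 2 they fell within the siControl range.

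Among the chromosome 9 metalloproteases, *Mmp13* (chr9:7272514-7283333) was measured at 6.79 and 9.48 CPM for no siRNA, 5.19 and 11.04 in siControl, and 5.11 and 4.87 in siSbsn of batch 1. In batch 2 it was at 2.33, 3.07 and 3.12 CPM with siControl and 1.79, 2.003 and 2.36 with siSbsn. The groups overlapped in batch 2, and in batch 1 the lower siControl library was close to the siSbsn libraries. *Mmp3* (chr9:7445822-7455974) stood at 2.04 and 2.92 CPM for no siRNA, 3.93 and 3.34 in siControl, and 2.43 and 2.53 in siSbsn of batch 1. Its batch 2 values were 0.941, 0.958 and 1.13 CPM with siControl and 0.797, 0.967 and 1.10 with siSbsn, which overlapped. *Mmp10* (chr9:7502342-7510242), the other stromelysin gene, had 8 and 16 counts without siRNA, 13 and 36 in siControl and 7 and 11 in siSbsn of batch 1. It had 5, 6 and 5 counts in siControl and 5, 6 and 8 counts in siSbsn of batch 2. The longest transcripts of *Mmp3* and *Mmp10* were 83.9% identical over 1313 aligned bases, with an identical run of 104 bases, and only uniquely aligned reads were counted, so that the counts of both are uncertain. Within its best local alignments, the longest identical run of *Mmp13* was 16 bases with *Mmp3* and 14 with *Mmp10*, and stretches outside these were not searched.

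*Mmp9* (chr2:164948219-164955850), the gelatinase gene, was measured at 39.8 and 37.1 CPM for no siRNA, 40.3 and 39.6 in siControl, and 36.1 and 23.8 in siSbsn of batch 1. In batch 2 it was measured at 5.96, 7.49 and 9.18 CPM with siControl and 4.99, 6.11 and 5.50 with siSbsn. The groups were separate in batch 1 and overlapped in batch 2. *Timp1* (chrX:20870166-20874737), the inhibitor gene, was at 7.85 and 4.24 CPM for no siRNA, 10.4 and 5.57 in siControl, and 7.80 and 3.79 in siSbsn of batch 1. In batch 2 it was at 3.40, 3.91 and 4.48 CPM with siControl and 3.30, 3.80 and 2.93 with siSbsn, and the treatments overlapped in both batches.

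**Figure D2:**
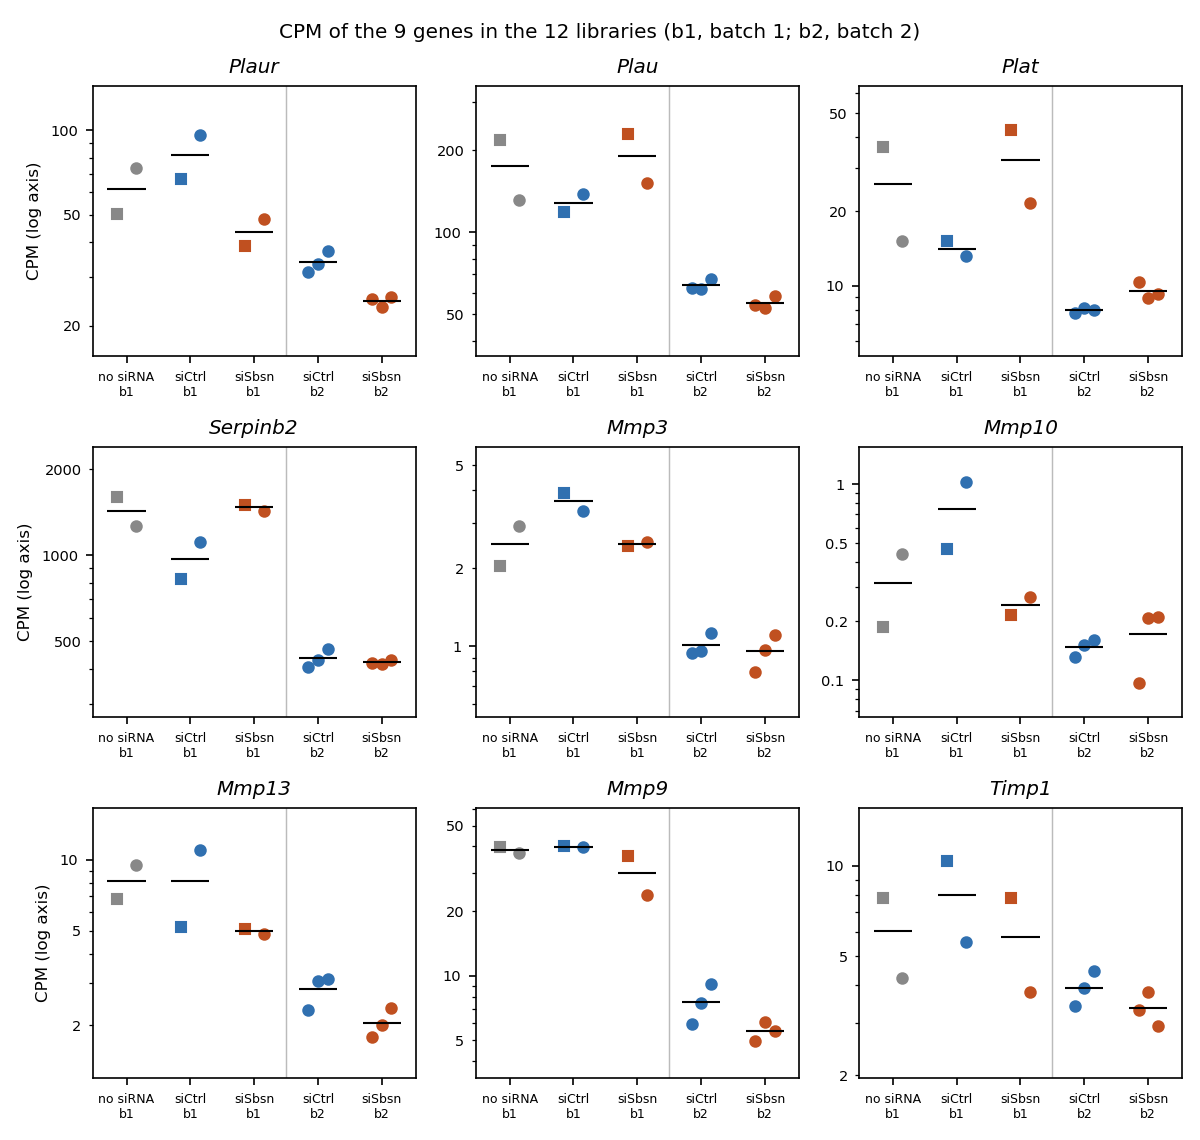
CPM of each gene in the 12 libraries, on log vertical axes that differ between panels, for the 5 groups on the horizontal axis (b1, batch 1; b2, batch 2; siCtrl, siControl). Points are libraries, squares are the libraries numbered 1 in batch 1, and lines are group means. For 8 of the 9 genes all 6 batch 2 libraries lie below the 4 siControl and siSbsn libraries of batch 1, and *Timp1* is the exception.

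The differences that passed the test were those between the batches, a comparison that the choice of *Plaur* did not use. All 8 genes that passed the filter on low counts in the 10 siControl and siSbsn libraries were down-regulated in batch 2 relative to batch 1, with treatment in the model, at q-values (Benjamini-Hochberg, edgeR quasi-likelihood test over 12857 loci) under 0.05 and absolute log2-fold changes over 0.5. By the same rule 21.3% of the loci tested were called lower and 16.4% higher. DESeq2 called all 9 genes lower, *Mmp10* included, against 18.1% of the loci it tested. The median log2-fold change of the 8 genes was -1.42, compared with -0.022 for all loci tested.

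*Mmp9* had the lowest value of the 8, with a log2-fold change of -2.43 ± 0.14 (SE; 6 against 4 libraries) and an edgeR q-value of 1.91e-06. The stromelysin gene *Mmp3* changed by -1.63 ± 0.15 on the log2 scale (edgeR q = 2.69e-05) and the collagenase gene *Mmp13* by -1.41 ± 0.20 (edgeR q = 0.000315). *Serpinb2* changed by -1.49 ± 0.13 (edgeR q = 1.69e-05). The activator genes *Plau* and *Plat* changed by -1.42 ± 0.16 (edgeR q = 8.5e-05) and -1.32 ± 0.22 (edgeR q = 0.000705), and the urokinase receptor gene *Plaur* by -1.06 ± 0.13 (edgeR q = 0.000132). *Timp1* had the log2-fold change closest to 0, at -0.92 ± 0.23 (edgeR q = 0.00684), and its fold change fell under the threshold, to -0.40 (edgeR q = 0.0437), when each library's trend with gene length was removed. *Mmp10* did not pass the filter, and without a filter its log2-fold change was -1.54 ± 0.42 (edgeR q = 0.00823).

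Every batch 2 library lay below all 4 siControl and siSbsn libraries of batch 1 for 8 of the 9 genes, which was the case for 19.0% of the 13562 loci. *Mmp10* was separated by a narrow margin, from 0.210 CPM to 0.216 CPM. *Timp1* was the exception, since the library siSbsn batch 1 replicate 2 at 3.79 CPM lay among the batch 2 values. With the library labelled siSbsn batch 1 replicate 1 left out, the same 8 genes were called, with log2-fold changes from -2.29 to -0.71. The keratinocyte marker sum was 62394 to 113682 CPM in the 4 siControl and siSbsn libraries of batch 1 and 41648 to 54732 CPM in batch 2, the fibroblast sum 541 to 1484 CPM and 524 to 610 CPM, the leukocyte sum 11.6 to 21.6 CPM and 7.01 to 9.10 CPM, and the melanocyte sum 524 to 653 CPM and 704 to 737 CPM. The part of these markers in the batch difference was not tested.

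Other genes of the plasminogen system and other metalloproteases did not all go the same way between the batches. Of 15 plasminogen system loci tested, 2 were called higher in batch 2, 3 lower and 10 not. *Serpine2*, which encodes a serpin that inhibits urokinase, was higher by 1.23 ± 0.12 (edgeR q = 2.87e-05). *Serpinf2*, the plasmin inhibitor gene, was higher by 1.18 (edgeR q = 0.00538), and *Anxa2* and *Itgb3*, which encode a plasminogen-binding annexin and an integrin subunit, were lower by log2-fold changes of -0.67 and -0.71. *S100a10*, the partner of the annexin, and *Itgb1* were not called, at -0.12 and -0.094.

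Of 12 other metalloprotease loci tested, 1 was higher and 3 were lower. The lower ones were *Mmp25* (-1.73), the joint locus *Mmp24*+*BC029722* (-1.34) and *Mmp23* (-0.91), and the higher one was *Mmp16* (0.74). *Mmp14*, the membrane-bound collagenase gene with the highest CPM of this list, had a log2-fold change of -0.019 ± 0.12 (edgeR q = 0.902), and the gelatinase gene *Mmp2* had -0.12 ± 0.17. *Mmp19*+*Tmem198b* passed the q-value threshold at -0.44 but not that of the fold change. Of the inhibitors, *Timp2* at -0.79 and *Timp3*+*Syn3* at -1.14 were lower and *Reck* at 0.34 was not called. Of 17 ADAM and ADAMTS loci, which encode membrane and secreted relatives of the metalloproteases, 2 were higher (*Adamts5* by 1.07 and *Adamts1* by 0.83) and 7 lower, among them *Adamts15*+*AK142774* (-1.71), *Efna4*+*Adam15*+*AK132440* (-1.47) and the joint locus of *Adam8* (-0.83).

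**Figure D3:**
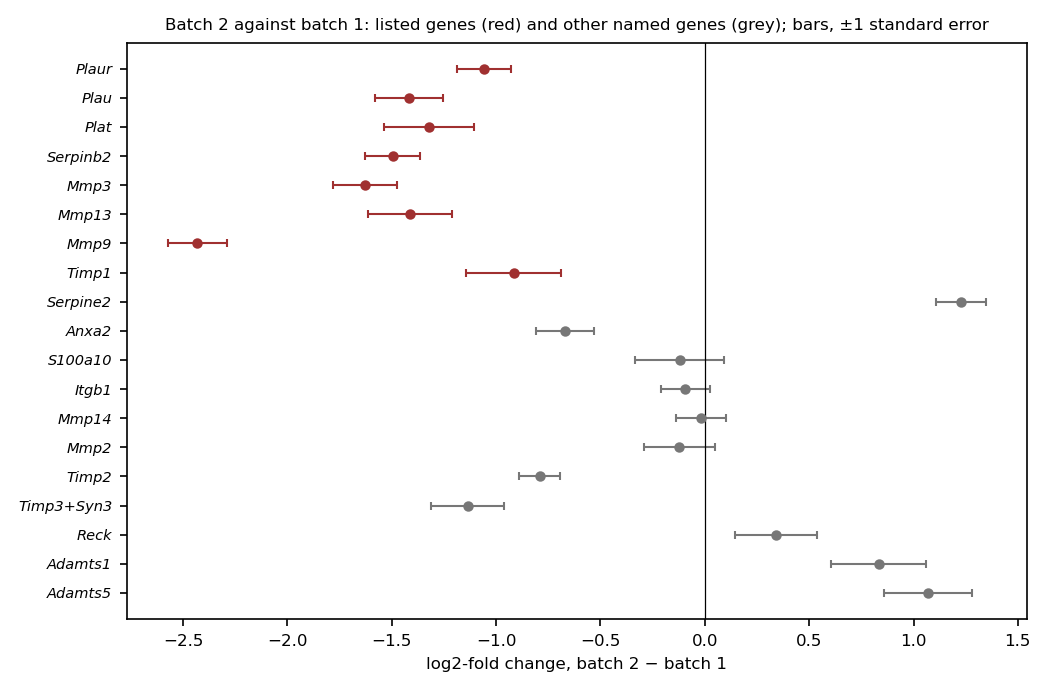
Log2-fold change of batch 2 against batch 1 on the horizontal axis for 8 of the 9 genes (red) and other loci of the plasminogen and metalloprotease lists (grey), with bars of 1 standard error on each side, from 6 and 4 libraries. The red points lie between -2.43 and -0.92. Of the grey points, *Timp3*+*Syn3* lies within that range, *Timp2* and *Anxa2* are also below 0, *Mmp14*, *Mmp2*, *Itgb1* and *S100a10* lie near 0, and *Serpine2*, *Adamts5* and *Adamts1* are above 0. The grey loci are a selection, and the lower loci *Mmp25*, *Mmp24*+*BC029722*, *Adamts15*+*AK142774* and *Efna4*+*Adam15*+*AK132440* are not plotted.

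Between siSbsn and siControl, none of the 7 tested genes other than *Plaur* passed the threshold with both batches in the model. The test called 0 of 12857 loci (0.0%), the smallest q-value being 0.254, while 2464 loci had an unadjusted p-value under 0.05, and DESeq2 called 92 of 12277 loci (0.749%), none of them among the 7 other genes to which it gave a q-value. Within the batches edgeR called 0.0% of loci in batch 1 and 0.00774% in batch 2, where *Sbsn* was the only locus called. *Plaur*, described without a test, had a log2-fold change of -0.64 ± 0.13 over both batches, -0.93 ± 0.28 in batch 1 and -0.45 ± 0.074 in batch 2. With the library labelled siSbsn batch 1 replicate 1 left out, the value over both batches was -0.54, and without siControl batch 1 replicate 2, the library with the highest *Plaur* level, it was -0.50. Every siSbsn library lay below every siControl library in both batches for 4.04% of loci, and *Plaur* was chosen for this.

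The genes of the activators and of the serpin did not pass the threshold by edgeR over both batches. *Plat* had a log2-fold change of 0.65 ± 0.22 over both batches (edgeR unadjusted p = 0.0128, q = 0.254), of 1.16 ± 0.37 in batch 1 (edgeR q = 0.423) and of 0.27 ± 0.088 in batch 2. The batch 1 value of *Plat* was called with the replicate block (1.09, edgeR q = 0.00223) and with no filter on low counts (1.16, edgeR q = 0.0321). Those fits called 1808 of 12899 and 478 of 18219 loci in batch 1. Without siControl batch 1 replicate 2 the *Plat* value was 1.03. With the library labelled siSbsn batch 1 replicate 1 left out, its values were 0.39 over both batches (edgeR q = 0.384) and 0.62 in batch 1 (edgeR q = 0.987). *Plau* had 0.11 ± 0.16 (edgeR q = 0.669) over both batches, and the value changed sign, to -0.056, without that library, its batch 1 value going from 0.55 to 0.24. *Serpinb2* had 0.22 ± 0.13 (edgeR q = 0.315) over both batches and 0.58 in batch 1 (edgeR q = 0.424), and 0.16 and 0.57 without that library. Its batch 1 value was called in a fit of all 12 libraries (0.60, edgeR q = 0.0438), which called 1294 of 13562 loci in batch 1. Without siControl batch 1 replicate 2 the batch 1 value of *Serpinb2* was 0.77. Without siControl batch 1 replicate 1 its values were 0.39 in batch 1 and 0.094 over both batches. The fibroblast marker sum was 541 and 585 CPM in siControl and 1484 and 714 CPM in siSbsn of batch 1, and 524 to 610 and 542 to 575 CPM in siControl and siSbsn of batch 2. After subtraction of each batch mean it correlated over the 12 libraries with *Plat* at r = 0.92 (Spearman's rho = 0.73), with *Plau* at r = 0.90 (rho = 0.79) and with *Serpinb2* at r = 0.76 (rho = 0.46). Leaving out siSbsn batch 1 replicate 1, a step added after the data were seen, gave r = 0.85, 0.84 and 0.77 over 11 libraries. The values of rho were then lower, at 0.55, 0.5 and 0.45. These are descriptions over libraries that share treatments and batches. The leukocyte marker sum in batch 1 was 13.6 and 12.8 CPM in siControl, 21.6 and 11.6 in siSbsn and 22.2 and 11.1 without siRNA. The part of fibroblast or leukocyte RNA in the values of these 3 genes was not tested.

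The metalloproteases all had negative values over both batches, none of which passed the threshold. *Mmp13* had a log2-fold change of -0.57 ± 0.20 (edgeR unadjusted p = 0.0172, q = 0.254), with -0.72 in batch 1 and -0.47 in batch 2. Without siControl batch 1 replicate 2 it was -0.32. *Mmp9* had -0.43 ± 0.14 (edgeR unadjusted p = 0.0126, q = 0.254), with -0.44 in each batch, and *Mmp3* had -0.29 ± 0.16 (edgeR q = 0.283), with -0.57 in batch 1 and -0.083 in batch 2. *Mmp10*, which passed the filter in batch 1 alone, had -1.65 ± 0.58 there (edgeR q = 0.423) and, without a filter, 0.16 ± 0.58 in batch 2 and -0.76 ± 0.43 over both batches (edgeR q = 0.391). The batch 1 value of *Mmp10* was called with the replicate block (-1.61, edgeR q = 0.0479), a fit that called 1808 of 12899 loci. *Timp1* had -0.32 ± 0.23 over both batches (edgeR q = 0.371). With the library labelled siSbsn batch 1 replicate 1 left out, the values over both batches were -0.24 for *Mmp3*, -0.53 for *Mmp9*, -0.55 for *Mmp13* and -0.48 for *Timp1*, with edgeR q-values of 0.384 to 0.421. Those in batch 1 were -0.76 for *Plaur*, -0.52 for *Mmp3*, -0.74 for *Mmp9* and for *Mmp13*, -1.50 for *Mmp10* and -1.07 for *Timp1*. *Plaur*, lower without overlap in both batches, was chosen for this and is left out of the next comparison. In batch 1 the siSbsn libraries lay wholly below siControl for *Mmp3*, *Mmp9*, *Mmp10* and *Mmp13*. They lay wholly above for *Plau*, *Plat* and *Serpinb2*, and these patterns were held by 25.4% and 25.3% of loci. In batch 2 they lay below for *Plau* and above for *Plat*, compared with 8.97% and 9.15% of loci.

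**Figure D4:**
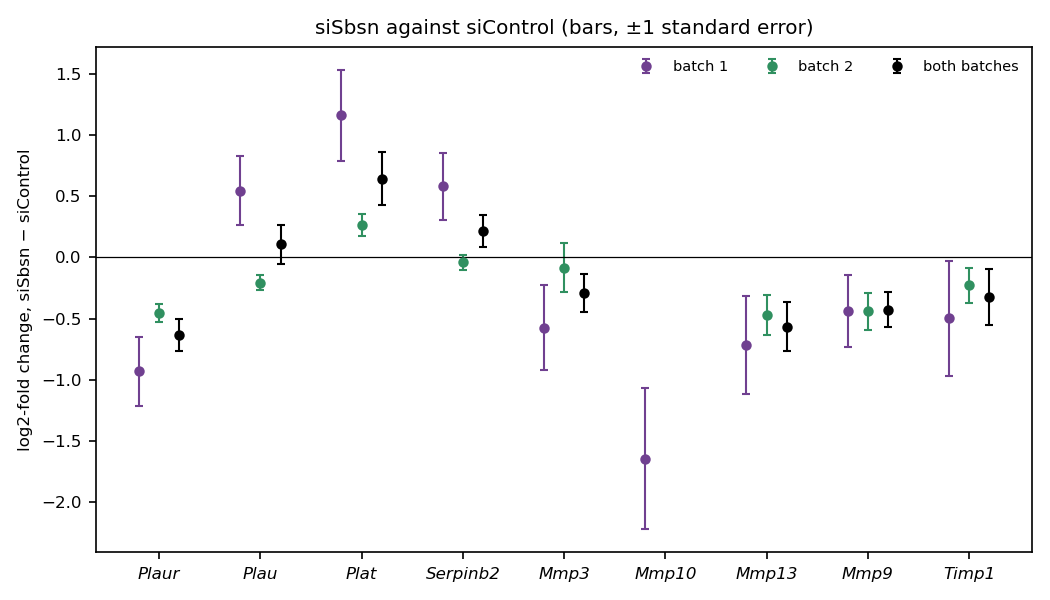
Log2-fold change of siSbsn against siControl on the vertical axis for each gene, in batch 1 (2 against 2 libraries), batch 2 (3 against 3) and both batches, with bars of 1 standard error on each side. *Mmp10* is shown for batch 1 alone, where it passed the filter. *Plaur* was chosen on this contrast at -0.93 and -0.45, *Plat* is above 0 in both batches, and *Plau* is at 0.55 in batch 1 and -0.21 in batch 2.

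Of 47 loci of the other plasminogen system genes, metalloproteases, inhibitors and ADAM and ADAMTS proteases tested over both batches, edgeR called 0 for siSbsn against siControl, and DESeq2 0 of 60. In batch 1 edgeR called 0 of 48. DESeq2 called *Lrp1* (1.57, DESeq2 q = 0.00165) and *Timp3*+*Syn3* (1.11, DESeq2 q = 0.0306) there, among 151 of 11861 loci called. The replicate block gave 11 higher and 2 lower calls of 48, beside 1227 and 581 of all 12899 loci. No filter gave 4 and 1 of 58, beside 396 and 82 of all 18219 loci. *Lrp1*, which encodes the endocytic receptor that clears activator and inhibitor complexes, had a log2-fold change of 0.81 over both batches (edgeR unadjusted p = 0.0083, q = 0.254), and *Timp3*+*Syn3* had 0.54 (edgeR q = 0.254). With the library labelled siSbsn batch 1 replicate 1 left out, these values were 0.64 and 0.44 (edgeR q = 0.384 for each). *Mmp14* had -0.24, *Mmp2* 0.26, *Timp2* 0.093, *S100a10* -0.45 and *Anxa2* -0.13. The medians were 0.084 over the 15 plasminogen system loci, 0.073 over the 12 other metalloproteases and 0.34 over the 17 ADAM and ADAMTS loci. Over all loci the median was 0.0055. No median of the listed genes is set beside these, since *Plaur* was chosen on this contrast.

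The difference between the batches in the siSbsn effect was tested with an interaction term. None of the 12857 loci (0.0%) had a q-value under 0.05 by edgeR, 1945 had an unadjusted p-value under 0.05, and DESeq2 called 166 (1.4%). *Plau* had a log2 difference of -0.77 ± 0.23 (batch 2 effect minus batch 1 effect, edgeR unadjusted p = 0.00776, q = 0.267), *Serpinb2* of -0.63 ± 0.18 (edgeR q = 0.265) and *Plat* of -0.92 ± 0.34 (edgeR q = 0.294). The difference of *Serpinb2* was -0.43 without siControl batch 1 replicate 1. Without siControl batch 1 replicate 2 the q-values of *Plau* and *Serpinb2* were 0.015 and 0.00411 and 4905 loci passed, and without siSbsn batch 1 replicate 2 those of *Plau* and *Plat* were 0.0171 and 0.0124 and 435 loci passed. With the library labelled siSbsn batch 1 replicate 1 left out, the differences were -0.47 for *Plau*, -0.62 for *Serpinb2* and -0.38 for *Plat* (edgeR q = 0.52 for each).

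The libraries without siRNA served as the background for a non-targeting pool, and the comparisons with them share the siControl and siSbsn libraries of batch 1 with the values above. For siControl against no siRNA, edgeR called 0 of 13176 loci (0.0%), 2116 had an unadjusted p-value under 0.05, and DESeq2 called 25 (0.176%). The log2-fold changes were 0.43 for *Plaur*, -0.41 for *Plau*, -0.83 for *Plat*, -0.53 for *Serpinb2* (edgeR q = 0.308), 0.59 for *Mmp3*, 1.31 for *Mmp10*, 0.026 for *Mmp13*, 0.089 for *Mmp9* and 0.44 for *Timp1*. Both siControl libraries lay below both libraries without siRNA for *Plat* and *Serpinb2* and above them for *Mmp3* and *Mmp10*, patterns held by 27.4% and 26.8% of loci.

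For siSbsn against no siRNA, edgeR and DESeq2 called 0 loci, and 23 loci (0.175%) had an unadjusted p-value under 0.05 by edgeR. The log2-fold changes were -0.51 for *Plaur*, 0.12 for *Plau*, 0.32 for *Plat*, 0.038 for *Serpinb2*, 0.0037 for *Mmp3*, -0.35 for *Mmp10*, -0.70 for *Mmp13*, -0.36 for *Mmp9* and -0.070 for *Timp1*. Both siSbsn libraries lay below both libraries without siRNA for *Plaur*, *Mmp9* and *Mmp13* (8.72% of loci) and above them for none of the 9 genes (8.21% of loci).

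Within the batches the 9 genes did not all vary together. After subtraction of each batch mean from log2(CPM + 0.5), *Plaur* correlated over the 12 libraries with *Mmp13* (r = 0.82), *Mmp10* (r = 0.76), *Mmp3* (r = 0.63) and *Mmp9* (r = 0.54), and inversely with *Plat* (r = -0.84), *Plau* (r = -0.48) and *Serpinb2* (r = -0.48). *Plau* and *Plat* correlated with each other at r = 0.84 and with *Serpinb2* at r = 0.80 and r = 0.71. These values have no test, since the libraries share treatments, batches and, for *Plaur*, the contrast that chose it. The fibroblast marker sum correlated with *Mmp3* at r = -0.80, with *Mmp10* at r = -0.72 and with *Plaur* at r = -0.67. Without siSbsn batch 1 replicate 1 these values were -0.89, -0.69 and -0.47. Spearman's rho for *Plaur* was -0.49 with that library and -0.33 without it. Over the 12 libraries the sum correlated weakly with *Mmp13* (r = -0.26), *Timp1* (r = 0.16) and *Mmp9* (r = -0.0066). In batch 1 *Plaur* and *Mmp10* were higher in the library numbered 2 than in that numbered 1 in 3 of 3 treatments, by 1.24-fold to 1.46-fold for *Plaur*. *Plat*, *Mmp9* and *Timp1* were higher in the library numbered 1 in 3 of 3, but *Mmp9* by only 1.02-fold in siControl and 1.07-fold without siRNA. Over all loci the differences between the numbers correlated at 0.38 to 0.80 between treatments. The share of loci with the same direction in 3 of 3 was not counted.

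Of 9642 loci with a mean of at least 5 CPM, those most like *Plaur* by this measure were *Cxcl1*, which encodes a neutrophil chemokine (r = 0.985, Spearman's rho = 0.972), *Wnt7a*, which encodes a Wnt ligand (r = 0.974, rho = 0.944), *Etv4*, which encodes an ETS factor (r = 0.972, rho = 0.930), the joint locus *D17H6S56E-5*+*Vars* (r = 0.969, rho = 0.923) and *Icam1*, which encodes an adhesion molecule for leukocytes (r = 0.968, rho = 0.958). These correlations over 12 libraries are a description of likeness and were not tested.

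**Figure D5:**
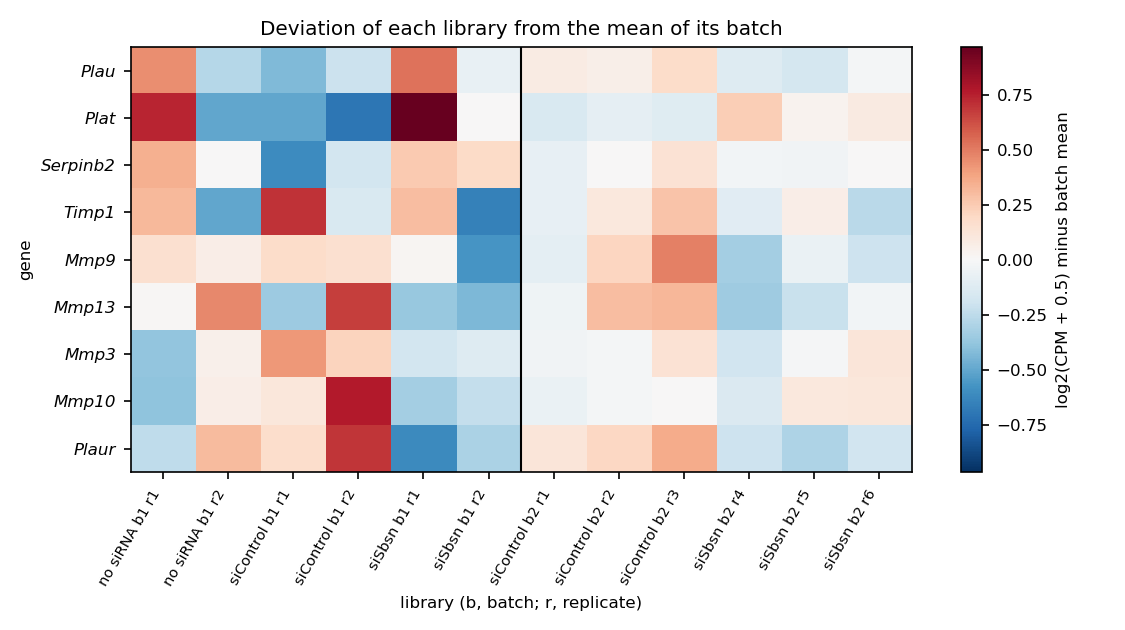
Deviation of log2(CPM + 0.5) of each gene (vertical axis) in each library (horizontal axis) from the mean of its batch, red above and blue below the mean, with a black line between batches. *Plau*, *Plat* and *Serpinb2* are high in the libraries numbered 1 of no siRNA and siSbsn in batch 1, whereas *Plaur*, *Mmp10* and *Mmp13* are highest in siControl batch 1 replicate 2.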

How the data were processed

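RNA-Seq counts of 12 libraries were used. The authors aligned the reads to mm10 with STAR, kept uniquely aligned reads, counted them on UCSC KnownGene genes and deposited the counts without normalization. Overlapping genes share a locus (4802 of 21947), and use of strand in counting was not given in the sources used here. Uniquely aligned reads lower the counts of near-identical genes. Groups follow the labels. Loci passing filterByExpr (minimum count 10) were scaled by TMM, fitted with glmQLFit and glmQLFTest of edgeR 4.0.16 under R 4.3.3, and called at q under 0.05 and an absolute log2-fold change over 0.5 (interaction, q alone). SE is the absolute log2-fold change over the square root of F. The library size behind a CPM sums 13562 loci (those past the filter over 12 libraries) and is multiplied by the TMM factor, and logs add 0.5 CPM. Lengths are those of the longest GENCODE transcript. Starts are printed 1 higher than deposited, so that coordinates count from 1. DESeq2 1.42.0, its size factors in edgeR, no filter, a gene length offset (lowess span 0.3), a replicate block, other fits and leaving out each library were alternatives. The tests were tested on simulated data with 100 loci changed by a log2-fold change of 1. They recovered 91 of these over both batches, 85 between batches, 97 in batch 2 and 10 in batch 1. For the interaction 26 were recovered, and 15 and 14 for siControl and siSbsn against no siRNA. In these and in batch 1, a result of 0 calls therefore does not show that changes of this size were absent. The study's methods used DESeq2 with a batch factor. The genes and lists were chosen with earlier results of these data known. Other genes named are the 3 loci of each list with the highest mean CPM, up to 3 called loci each way, *Mmp2*, *Mmp14*, *Timp2* and *Timp3*, and the 5 loci most like *Plaur*. *Lrp1* was named after its values were seen, and 1 gene that the rule names is not reported here.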

Additional observations from a re-analysis of the deposited data

Results flagged for a closer look

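*Plau* stood out because its siSbsn effect had opposite signs in the batches: every library labelled siSbsn was above every siControl library in batch 1 and below every siControl library in batch 2. The difference, batch 2 effect minus batch 1 effect, was -0.77 on the log2 scale, with an edgeR q-value of 0.267, so that it did not pass the correction over 12857 loci. The same pattern of libraries was seen in 0.796% of 13562 loci. Leaving out siSbsn replicate 1 of batch 1 gave a difference of -0.47. The fibroblast marker sum was 1484 CPM in that library, where *Sbsn* was also not below the controls, and its part in the *Plau* values was not tested.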

How the results depend on the processing

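All 8 genes tested kept their lower values in batch 2 past the threshold under DESeq2, its size factors, no filter, the replicate block and each left-out library, with log2-fold changes of -2.54 to -0.68 without 1 library, and 7 of 8 did so with the gene length trend removed (not *Timp1*). Counts of called loci moved more. DESeq2 called 92 loci for siSbsn against siControl over both batches, 151 in batch 1, 7 in batch 2, 166 for the interaction and 25 for siControl against no siRNA. No filter gave 478 in batch 1, among them *Plat* (1.16, edgeR q = 0.0321), 9 in batch 2, 17 for the interaction and 815 for siControl against no siRNA, the length trend gave 5 in batch 2, and a fit of all 12 libraries gave 1294 in batch 1, with *Serpinb2* at 0.60 (edgeR q = 0.0438), and 0 in batch 2. The cause was not tested. Leaving out 1 library gave 0 to 0 calls over both batches, 5 to 3399 in batch 1, 1 to 10 in batch 2 (10 without siControl replicate 3), 0 to 4905 for the interaction, 4151 to 5396 between batches, 0 to 3213 for siControl against no siRNA and 0 to 0 for siSbsn against no siRNA; the highest of these in batch 1, the interaction and siControl against no siRNA came without siControl batch 1 replicate 2. A lone library left in an arm was assumed to vary like the others.

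The titles of batch 1 number the libraries of each treatment 1 and 2, and the labels do not say that a number marks a shared culture. Differences between numbers 1 and 2 correlated at 0.38 to 0.80 between treatments. With the replicate block, 1808 loci were called in batch 1, among them *Plat* (1.09, edgeR q = 0.00223) and *Mmp10* (-1.61, edgeR q = 0.0479), and 69 for the interaction, with 0 calls over both batches and in the comparisons with no siRNA. No paired analysis was possible within batch 2 because its treatments share no number. The block reversed *Mmp9* in the interaction (0.014) and *Mmp13* in siControl against no siRNA (-0.015).

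Removing the length trend reversed *Timp1* in batch 1 (0.11), in the interaction (-0.22) and in siControl against no siRNA (-0.24), *Serpinb2* in batch 2 (0.035), *Mmp13* in siControl against no siRNA (-0.13) and *Mmp3* in siSbsn against no siRNA (-0.040). Without 1 library, signs turned for *Plau* over both batches (-0.056 to 0.17), *Timp1* in batch 1 (-1.07 to 0.039), *Mmp3* (-0.20 to 0.056) and *Serpinb2* (-0.077 to 0.0071) in batch 2, *Mmp13* (-0.44 to 0.68), *Mmp9* (-0.29 to 0.29) and *Timp1* (-0.26 to 0.82) in the interaction, *Mmp13* (-0.59 to 0.45) and *Timp1* (-0.11 to 0.95) in siControl against no siRNA, and in siSbsn against no siRNA for *Mmp10* (-0.86 to 0.36), *Mmp3* (-0.23 to 0.29), *Plat* (-0.25 to 1.09), *Plau* (-0.20 to 0.54), *Serpinb2* (-0.12 to 0.22) and *Timp1* (-0.67 to 0.44). With 5 to 36 counts a library, *Mmp10* is limited by depth.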
